A study of Mus musculus with 46 samples.

Results

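The nuclear complex I subunits are the genes of respiratory NADH dehydrogenase that the cell nucleus encodes. Members were chosen by name: each gene of both count tables whose mouse symbol is Nduf followed by a, b, c, s or v and a number, and Ndufab1, with the Ndufaf assembly factors left out. This gave 37 genes, of 17514 in the gastrocnemius table and 16987 in the spinalis table, and all 37 were in both tables. The symbol Ndufb1 was in neither table.

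The series measured total RNA of mouse skeletal muscle to ask how the genotype of Actn3, which encodes the fast-fibre Z-disc protein alpha-actinin-3, affects the response to androgen. The first experiment took gastrocnemius from C57BL6 males, and the second took spinalis from C57BL6 females. Muscle, sex, age, duration and type of intervention all differ between the experiments and cannot be told apart, so no test was run across them. The labels call the genotypes WT and KO and do not name the KO allele.

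In the gastrocnemius experiment, WT-sham and WT-ORX were WT males and KO-sham and KO-ORX were Actn3 KO males, operated on at 8 to 10 weeks of age and killed 12 weeks later. ORX mice lost both testes, and sham mice had the testes exposed and left in place. In the spinalis experiment, WT-empty and KO-empty were WT and KO females that carried an empty silastic implant under the skin, and WT-DHT and KO-DHT carried an implant with 10 mg of dihydrotestosterone (DHT). Implants went in at 4 to 5 weeks of age and stayed for 6 weeks. Each group had 6 mice, except for KO-ORX, WT-empty and KO-empty with 5 libraries each. The labels list 46 samples, and 1 KO-ORX sample had no counts, which left 45 libraries.

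Total counts per library, in M, were 43.4, 47.1 and 50.3 in WT-sham (lowest, median and highest), 39.9, 45.6 and 55.4 in WT-ORX, 29.5, 34.3 and 37.5 in KO-sham, and 29.7, 26.7, 46.8, 48.5 and 41.6 in KO-ORX. In spinalis they were 37.3, 47, 40.2, 49.4 and 51.2 in WT-empty, 34.8, 52 and 53.9 in WT-DHT, 44.1, 46.6, 47.8, 43.5 and 42.5 in KO-empty, and 34.9, 44.2 and 51.7 in KO-DHT. The KO-sham libraries were all smaller than the WT-sham libraries. Actn3 itself had 222975 to 522718 counts in WT libraries and 1051 to 3913 in KO libraries, so every library carried the Actn3 level of its labelled genotype. Of the 8 skeletal muscle markers, all 8 were in both tables, with Ttn the most abundant.

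Complex I oxidises NADH in the mitochondrial matrix and passes the electrons through a flavin and iron-sulfur clusters to ubiquinone, and it couples this to the pumping of protons across the inner membrane. Its core subunits do the catalysis, some encoded in the nucleus and some in mitochondrial DNA (mtDNA), and accessory subunits around them serve assembly and stability. In muscle it supplies the respiratory chain that sustains contraction, and oxidative fibres hold more of it than glycolytic fibres.

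Levels are given as CPM, counts of a gene per M counts of a library, after TMM scaling, which matches libraries on the bulk of their genes. The 37 members summed to 6213, 6769.5 and 7307 CPM in WT-sham (lowest, median and highest), 5788, 6236.5 and 7275 in WT-ORX, 6963, 7876.5 and 8153 in KO-sham, and 6082, 6307, 6382, 6751 and 7107 in KO-ORX. The ranges of these groups overlapped. In WT-ORX, mice 3 and 4 stood apart at 7275 and 7067 CPM, above the other 4 mice at 5788 to 6279. The same 2 mice had summed levels of 4533 and 4511 CPM for the mtDNA-encoded complex I genes, against 3054 to 3361 in the other 4. The part of this difference in the ORX comparison in WT and in the ORX interaction was not tested beyond leaving out each mouse in turn.

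In spinalis the sums were 5036, 5075, 5276, 5849 and 6103 CPM in WT-empty, 5670, 5893.5 and 6191 in WT-DHT, 5417, 5525, 5779, 5945 and 6519 in KO-empty, and 6547, 6933 and 7096 in KO-DHT. All 6 KO-DHT libraries were above each of the other 16 spinalis libraries. In bulk muscle, fewer cells of a type and less RNA per cell cannot be told apart.

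**Figure D1:**
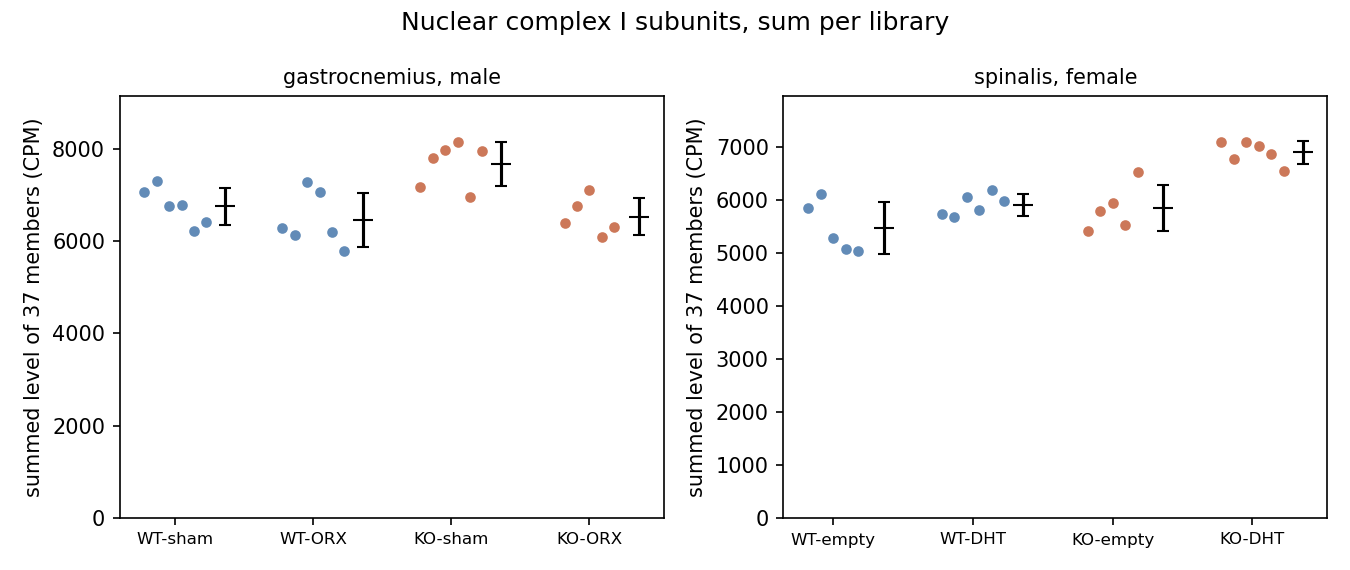
Summed level of the 37 members in CPM (vertical axes) in each group, with gastrocnemius and spinalis in separate panels; points are libraries and bars are the mean with its SD. The KO-DHT libraries sit between 6547 and 7096 CPM, above the other spinalis libraries, and WT-ORX mice 3 and 4 sit at 7275 and 7067.

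Per kilobase of annotated exon, Ndufa4 had the highest mean level in all 8 groups, from 616 CPM per kilobase in WT-empty to 1060 in KO-sham. Ndufa4 was first described in complex I and is now counted with complex IV. Ndufb9, an accessory subunit of the membrane arm, was next in the 4 gastrocnemius groups, with 342 CPM per kilobase in WT-sham and 425 in KO-sham. Ndufb2, a membrane-arm accessory subunit, and Ndufab1, the acyl carrier protein, had the lowest levels, with 6.45 and 10.7 CPM per kilobase in WT-sham. Their annotated exons span 4375 and 4387 bases, the longest among the members, so these values depend on the annotated length.

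Between the mice of WT-sham, the coefficient of variation had a median over members of 7.46%, from 4.43% for Ndufa12 to 13.2% for Ndufb2. In WT-empty the median was 11.1%, from 6.91% for Ndufa11 to 22.6% for Ndufb2. Ndufa12 is an accessory subunit of the matrix arm, and Ndufa11 and Ndufs5 are of the membrane arm. The lowest count of any member in any library was 756 for Ndufb2 in gastrocnemius and 794 for Ndufs5 in spinalis, and the filter on low counts removed 0 genes.

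Each comparison was tested with edgeR over all genes of its table, and a gene was called at an adjusted p of at most 0.01, or 0.05 where the interaction of treatment with genotype was tested. Comparisons within an experiment share groups: the ORX comparison in WT and the genotype comparison in sham, for example, share the WT-sham mice. The p-values measure the spread between mice. Of the 37 members, 18 were called in at least 1 of 10 comparisons and 19 in none. For genotype 15 members were called, and for treatment 11. Single comparisons called up to 11.6% of all genes. The share of all genes called in at least 1 of several comparisons was not computed. These counts are therefore not read as a result about the members. Ndufs4, an accessory subunit, was called in 6 comparisons, and Ndufs1, a core subunit, in all 4 genotype comparisons.

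The ORX comparisons ask how loss of testicular androgen changed the members in gastrocnemius. In WT, Ndufs4 fell, with a log2 fold change of -0.32 (SE 0.0733, adjusted p = 0.00406) in 6 mice a group. It was among 2 of 37 members called lower (3.41% of all genes), and 0 were called higher (2.04% of all genes). The share of members called lower was close to that of all genes. With edgeR, 13 members had an unadjusted p under 0.05, beside 22.3% of all genes, and DESeq2 called 0 higher and 3 lower and limma-voom 0 and 2. The median over members was -0.03, beside 0.0127 for all genes, and it was 0.01 under library-size scaling, so no direction can be given. Of the members not called, Ndufa10 had -0.19 (SE 0.0505, adjusted p = 0.0167) and Ndufb5 -0.22 (SE 0.0633, adjusted p = 0.0262). Without mouse 2 or 3 of WT-sham or mouse 1 or 6 of WT-ORX, 1 member was called in place of 2. Library-size scaling, with or without mtDNA-encoded genes, also left 1 call, and with them it put 54.4% of all called genes on the higher side, against 37.5% with TMM.

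In KO gastrocnemius more members fell with ORX. Of 37 members 8 were called lower (3.58% of all genes), among them Ndufa8, Ndufa10, Ndufv1, Ndufs4, Ndufv2, Ndufa9 and Ndufb10. No member was called higher: the count was 0, beside 1.99% of all genes, and 1 of 37 had a positive fold change. DESeq2 called 12 lower and 0 higher, limma-voom called 8 lower and 0 higher, and 26 members had an unadjusted p under 0.05 with edgeR, beside 24.5% of all genes. The median over members was -0.19, beside 0.0145 for all genes. Library-size scaling moved the median of all genes to 0.121 and that of members to -0.09, and 3 members were called. It put 78.6% of all called genes on the higher side (66.5% with mtDNA-encoded genes left out of the library size, where 4 members were called), against 35.7% with TMM. Without mouse 3 or 6 of KO-sham or mouse 1, 4 or 5 of KO-ORX, 5 members were called.

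The difference between the KO and the WT response to ORX was tested as an interaction. edgeR called 0 members in either direction, beside 0.0171% of all genes higher and 0.00571% lower. The smallest adjusted p among members was 0.289, for Ndufa5. So the larger count in KO was not shown to differ from that in WT. DESeq2 and limma-voom also called 0, and 14 members had an unadjusted p under 0.05 with edgeR, beside 9.61% of all genes. The median over members was -0.19, beside 0.0032 for all genes, and 36 of 37 were negative. Under library-size scaling 6 were positive and the median was -0.13. All called genes were on the higher side under that scaling (100%, against 75% with TMM, over 3 and 4 called genes).

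The genotype comparisons ask how muscle without Actn3 differed under each treatment. In sham gastrocnemius all 37 members had a positive log2 fold change in KO against WT, with a median of 0.18 beside -0.0069 for all genes. Of 37 members 4 were called higher (2.48% of all genes), among them Ndufs1, Ndufab1 and Ndufa9, and 0 were called lower (2.82%). With edgeR 22 members had an unadjusted p under 0.05, beside 23.3% of all genes, and DESeq2 called 9 higher and 0 lower and limma-voom 5 and 0. Under library-size scaling 35 members were positive and 1 was called. With mtDNA-encoded genes left out of the library size 37 were positive and 1 was called. Without mouse 2, 3, 4 or 6 of KO-sham or mouse 3, 4 or 5 of WT-sham 1 member was called, without mouse 6 of WT-sham or mouse 1 or 2 of WT-ORX 2 were, and without mouse 5 of KO-sham or mouse 2 of WT-sham 7 were.

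After ORX, Ndufs1 and Ndufb2 were higher in KO than in WT. The count was 2 of 37 called higher (1.07% of all genes) and 0 called lower (2.73%), with an unadjusted edgeR p under 0.05 for 5 members, beside 18.9% of all genes. DESeq2 called 2 higher and 0 lower and limma-voom 1 and 0. The median over members was -0.03, beside 0.0086 for all genes, and it was 0.02 and 0.03 under library-size scaling with and without mtDNA-encoded genes, so no direction can be given for the set. The split of all called genes moved from 28.2% higher with TMM to 46.9% and 51.8%. Ndufs5 (-0.25, SE 0.101, adjusted p = 0.16) and Ndufb8 (-0.15, SE 0.0663, adjusted p = 0.208) were on the lower side without a call. In 14 of 23 fits that each left out a library, 1 member was called in place of 2.

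The DHT comparisons ask how the androgen implant changed the members in spinalis. In WT, Ndufs4 rose 1.77-fold and Ndufa4 1.23-fold. They were the 2 of 37 members called higher (6.63% of all genes), and 0 were called lower (4.64%). With edgeR 7 members had an unadjusted p under 0.05, beside 29.8% of all genes, and DESeq2 called 3 higher and 0 lower and limma-voom 2 and 0. The members had a median of 0.10, beside -0.0063 for all genes, and 25 of 37 were positive. Under library-size scaling the median was 0.02, 1 member was called higher and 1 lower, and 43.6% of all called genes were higher, against 58.8% with TMM. Of the members without a call, the smallest p was that of Ndufa8, with 0.37 (SE 0.112, adjusted p = 0.0213), followed by Ndufa12, with 0.23 (SE 0.0731, adjusted p = 0.0327), and Ndufa7 had the smallest among negative values, with -0.18 (SE 0.0657, adjusted p = 0.0553).

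In KO spinalis Ndufs4 and Ndufa4 rose with DHT and so did Ndufv2, Ndufs3, Ndufb9 and Ndufa10. They were among 7 of 37 members called higher (2.86% of all genes), and 0 were called lower (1.75%). With edgeR 21 members had an unadjusted p under 0.05, beside 25.2% of all genes, and DESeq2 called 13 higher and 0 lower and limma-voom 9 and 0. Over members the median was 0.18, beside -0.0112 for all genes, and 36 of 37 were positive. Leaving out 1 KO-empty library or 1 KO-DHT library gave 4 calls, and leaving out another KO-empty library gave 14.

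The genotype comparison in mice with empty implants called Ndufs1 alone. That was 1 of 37 called higher (1.75% of all genes) and 0 called lower (2.5%), and 7 members had an unadjusted edgeR p under 0.05, beside 23.4% of all genes. DESeq2 and limma-voom each called 1 higher and 0 lower. Over members the median was 0.09, beside 0.0126 for all genes, and 30 of 37 were positive. Scaling by library size without mtDNA-encoded genes moved the median of all genes to 0.105 and that of members to 0.18, and 2 members were called under each library-size scaling. The share of called genes on the higher side was 41.3% with TMM, 52.9% with library-size scaling and 63.2% with mtDNA-encoded genes left out as well. Leaving out 1 of 4 WT-empty or 4 KO-empty libraries gave 0 calls, and leaving out another WT-empty library gave 2.

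More members were called for genotype under DHT than with empty implants. In the DHT interaction, which tests this difference, 0 members were called higher and 1 lower. In KO-DHT against WT-DHT, 12 of 37 members were called higher (5.13% of all genes), and Ndufs4 was the 1 called lower (6.51% of all genes). Among the 12 were Ndufs1, Ndufs8, Ndufv1, Ndufa10, Ndufs7, Ndufa9, Ndufv2, Ndufb9, Ndufc1, Ndufb3 and Ndufs3. The median over members was 0.21, beside 0.0064 for all genes, and 35 of 37 were positive. With edgeR 28 members had an unadjusted p under 0.05, beside 29.6% of all genes, and DESeq2 called 14 higher and 1 lower and limma-voom 13 and 1. Under library-size scaling 21 members were called higher and 0 lower, and without mtDNA-encoded genes, a scaling that moved the median of all genes to 0.108 and that of members to 0.31, 18 higher and 0 lower. The share of called genes on the higher side was 44.1% with TMM and 65.3% and 69.5% with these scalings.

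The interaction asked whether the DHT response differed between genotypes. Ndufs4 responded less in KO, with a difference of log2 fold changes of -0.40 (SE 0.0888, adjusted p = 0.0102), which made 1 of 37 called lower (1.9% of all genes) and 0 called higher (1.34%). Ndufs3 had 0.38 (SE 0.11, adjusted p = 0.0598), Ndufs7 0.38 (SE 0.117, adjusted p = 0.076) and Ndufs8 0.28 (SE 0.0874, adjusted p = 0.0796), all short of the threshold. So a larger DHT response of these core subunits in KO was not shown. With edgeR 11 members had an unadjusted p under 0.05, beside 15.1% of all genes, and limma-voom called 0 higher and 1 lower. DESeq2 and library-size scaling each called 3 higher and 1 lower, and library-size scaling put 55.1% of called genes on the higher side, against 41.5% with TMM. Members had a median of 0.12, beside -0.0094 for all genes. Leaving out 1 of 4 libraries moved the count: 4 without a WT-empty library, 3 without another, 4 without a KO-empty library and 2 without a KO-DHT library. No member was called without the 5 libraries over 20 CPM of the brown adipocyte marker Ucp1, left out after seeing the data, or at an adjusted p of at most 0.01.

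The NADH-binding part of the core has 3 nuclear subunits, at the tip of the matrix arm. Ndufs1 carries iron-sulfur clusters in the electron path. In gastrocnemius, Ndufs1 had 398, 428 and 461 CPM in WT-sham, 362, 392 and 410 in WT-ORX, 485, 543 and 581 in KO-sham, and 435, 442, 475, 494 and 496 in KO-ORX. The KO ranges lay above the WT ranges under either treatment, with no overlap. Spinalis levels of Ndufs1 were 297, 323, 333, 343 and 377 CPM in WT-empty, 308, 327 and 368 in WT-DHT, 386, 395, 410, 411 and 431 in KO-empty, and 425, 452 and 476 in KO-DHT. Here too each KO library lay above each WT library of the same treatment. The genotype log2 fold changes were 0.33 (SE 0.0512, adjusted p = 8.98e-05) in sham, 0.27 (SE 0.0536, adjusted p = 0.00151) after ORX, 0.28 (SE 0.0656, adjusted p = 0.0075) with empty implants and 0.44 (SE 0.0599, adjusted p = 8.7e-06) with DHT, in edgeR. The interactions were -0.06 with ORX (adjusted p = 0.85) and 0.16 with DHT (adjusted p = 0.439). The empty-implant call was lost in 8 of 22 fits that each left out a library, with an adjusted p of up to 0.0246, and its adjusted p was 0.0471 with only its 2 groups fitted and 0.177 without the libraries over 20 CPM of Ucp1. Ndufs1 exons overlap Ino80dos on the opposite strand, and the strand setting of the counting is not stated, so its counts may hold reads of that gene.

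Ndufv1 binds NADH and the flavin. Its gastrocnemius levels were 305, 340 and 396 CPM in WT-sham, 294, 301 and 319 in WT-ORX, 365, 383 and 423 in KO-sham, and 284, 299, 330, 333 and 339 in KO-ORX. KO-ORX lay below KO-sham with no overlap. In spinalis, Ndufv1 had 275, 290, 293, 296 and 356 CPM in WT-empty, 274, 309 and 349 in WT-DHT, 282, 300, 330, 344 and 363 in KO-empty, and 379, 396 and 430 in KO-DHT. All KO-DHT libraries were above all libraries of the other 3 groups. Ndufv1 fell with ORX in KO, by a log2 fold change of -0.30 (SE 0.0614, adjusted p = 0.00164), and was higher in KO than WT under DHT, by 0.37 (SE 0.0723, adjusted p = 0.000542). Its DHT comparison in KO, 0.30 (SE 0.076, adjusted p = 0.0131), was not called although the groups did not overlap. The ORX call was lost under library-size scaling (-0.20, adjusted p = 0.0193).

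Ndufv2 is the partner of Ndufv1 and carries an iron-sulfur cluster. Its levels in gastrocnemius were 286, 304 and 342 CPM in WT-sham, 268, 299 and 342 in WT-ORX, 311, 354 and 399 in KO-sham, and 260, 285, 287, 292 and 313 in KO-ORX. KO-ORX and KO-sham overlapped at their edges. In spinalis, Ndufv2 had 211, 219, 232, 236 and 274 CPM in WT-empty, 226, 242 and 278 in WT-DHT, 228, 231, 234, 235 and 252 in KO-empty, and 281, 302 and 314 in KO-DHT. KO-DHT was above the other groups with no overlap. Ndufv2 fell with ORX in KO (-0.31, SE 0.0698, adjusted p = 0.00397) and rose with DHT in KO (0.35, SE 0.0649, adjusted p = 0.00109), and was higher in KO than in WT under DHT (0.28, SE 0.0617, adjusted p = 0.00208). The ORX call was lost without mouse 3 or 6 of KO-sham (adjusted p 0.013 and 0.0122) or mouse 1, 4 or 5 of KO-ORX (0.011, 0.0189 and 0.0112), and under library-size scaling (0.0501).

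Ndufs3, Ndufs7 and Ndufs8 belong to the quinone-binding part of the core, and Ndufs7 and Ndufs8 carry the iron-sulfur clusters that hand electrons to ubiquinone. In spinalis, Ndufs3 had 73.6, 74.2, 78.7, 94 and 99 CPM in WT-empty, 76.4, 83 and 89.7 in WT-DHT, 73.5, 75.6, 77.5, 79 and 91 in KO-empty, and 91.8, 103 and 110 in KO-DHT. Every KO-DHT library was above every KO-empty and WT-DHT library, while 2 WT-empty libraries lay within the KO-DHT range. It rose with DHT in KO (0.37, SE 0.0781, adjusted p = 0.00356) and was higher in KO than in WT under DHT (0.30, SE 0.0742, adjusted p = 0.00534). The DHT call in KO was lost without 1 of 3 KO-empty libraries or 1 KO-DHT library, with adjusted p of 0.0134, 0.0102, 0.0113 and 0.0104, and the genotype call in 7 of 22 fits, with up to 0.0163. In gastrocnemius, Ndufs3 had 74.3, 89.5 and 91.6 CPM in WT-sham, 76.9, 84.1 and 90.7 in WT-ORX, 84, 87.7 and 93.3 in KO-sham, and 71.3, 75.7, 77.3, 80.3 and 86.4 in KO-ORX, and none of its comparisons there was called. Its exons overlap Kbtbd4 on the opposite strand, which leaves its counts uncertain in the same way.

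Spinalis levels of Ndufs7 were 117, 128, 135, 151 and 161 CPM in WT-empty, 116, 132 and 145 in WT-DHT, 124, 125, 133, 141 and 166 in KO-empty, and 155, 175 and 179 in KO-DHT. The 6 KO-DHT libraries lay above the 6 WT-DHT libraries and overlapped both empty groups. Those of Ndufs8 were 104, 110, 114, 124 and 124 CPM in WT-empty, 103, 111 and 113 in WT-DHT, 111, 111, 121, 122 and 142 in KO-empty, and 133, 141 and 145 in KO-DHT. KO-DHT was again above WT-DHT with no overlap. Under DHT the genotype difference was 0.38 (SE 0.0789, adjusted p = 0.00108) for Ndufs7 and 0.36 (SE 0.059, adjusted p = 8.48e-05) for Ndufs8. In gastrocnemius, Ndufs7 had 111, 137 and 150 CPM in WT-sham, 126, 133 and 140 in WT-ORX, 140, 141 and 155 in KO-sham, and 114, 117, 127, 131 and 134 in KO-ORX. Ndufs8 levels there were 109, 127 and 141 CPM in WT-sham, 119, 127 and 160 in WT-ORX, 139, 149 and 156 in KO-sham, and 116, 124, 134, 136 and 141 in KO-ORX. KO-ORX lay below KO-sham without overlap for Ndufs7 and with overlap for Ndufs8, and no gastrocnemius comparison called either gene.

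The accessory subunits of the matrix arm are 9, of which Ndufs4, Ndufs6, Ndufa5 and Ndufa9 had values given per library. Ndufs4 helps attach the tip of the matrix arm, and loss of it causes complex I deficiency in mice and people. In gastrocnemius, Ndufs4 had 205, 224 and 237 CPM in WT-sham, 150, 176 and 205 in WT-ORX, 208, 246 and 272 in KO-sham, and 173, 179, 184, 190 and 203 in KO-ORX. The KO groups did not overlap, and the WT groups met at 205. Spinalis levels of Ndufs4 were 118, 126, 128, 134 and 152 CPM in WT-empty, 214, 233 and 253 in WT-DHT, 141, 142, 145, 148 and 151 in KO-empty, and 179, 199 and 208 in KO-DHT. Each DHT library lay above each empty library, and each WT-DHT library lay above each KO-DHT library. Ndufs4 fell with ORX in WT (-0.32, SE 0.0733, adjusted p = 0.00406) and in KO (-0.38, SE 0.0773, adjusted p = 0.00195), with an interaction of -0.05 (SE 0.106, adjusted p = 0.912). With DHT it rose in WT (0.83, SE 0.0637, adjusted p = 5.77e-10, 1.77-fold) and in KO (0.43, SE 0.0632, adjusted p = 6.5e-05, 1.35-fold), and it was the single member with a called interaction.

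Under DHT, Ndufs4 was lower in KO than in WT (-0.25, SE 0.0598, adjusted p = 0.00366), in the opposite direction to the 12 members called higher. This call was lost under library-size scaling with (-0.17, adjusted p = 0.0693) and without mtDNA-encoded genes (-0.15, adjusted p = 0.158), and without 1 of 2 WT-DHT or 2 KO-DHT libraries (0.0129, 0.0115, 0.0107 and 0.0126). The interaction was called in each of the 22 fits that left out a library and under both of those scalings (0.036 and 0.0456), and it was lost without the 5 libraries over 20 CPM of Ucp1 (-0.36, adjusted p = 0.0868). The ORX call in WT was lost without mouse 2, 3 or 5 of WT-sham (0.0116, 0.0123 and 0.0121) or mouse 1 or 6 of WT-ORX (0.0125 and 0.0143), and under library-size scaling (0.0179). The ORX call in KO was lost under library-size scaling too (0.0281).

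**Figure D2:**
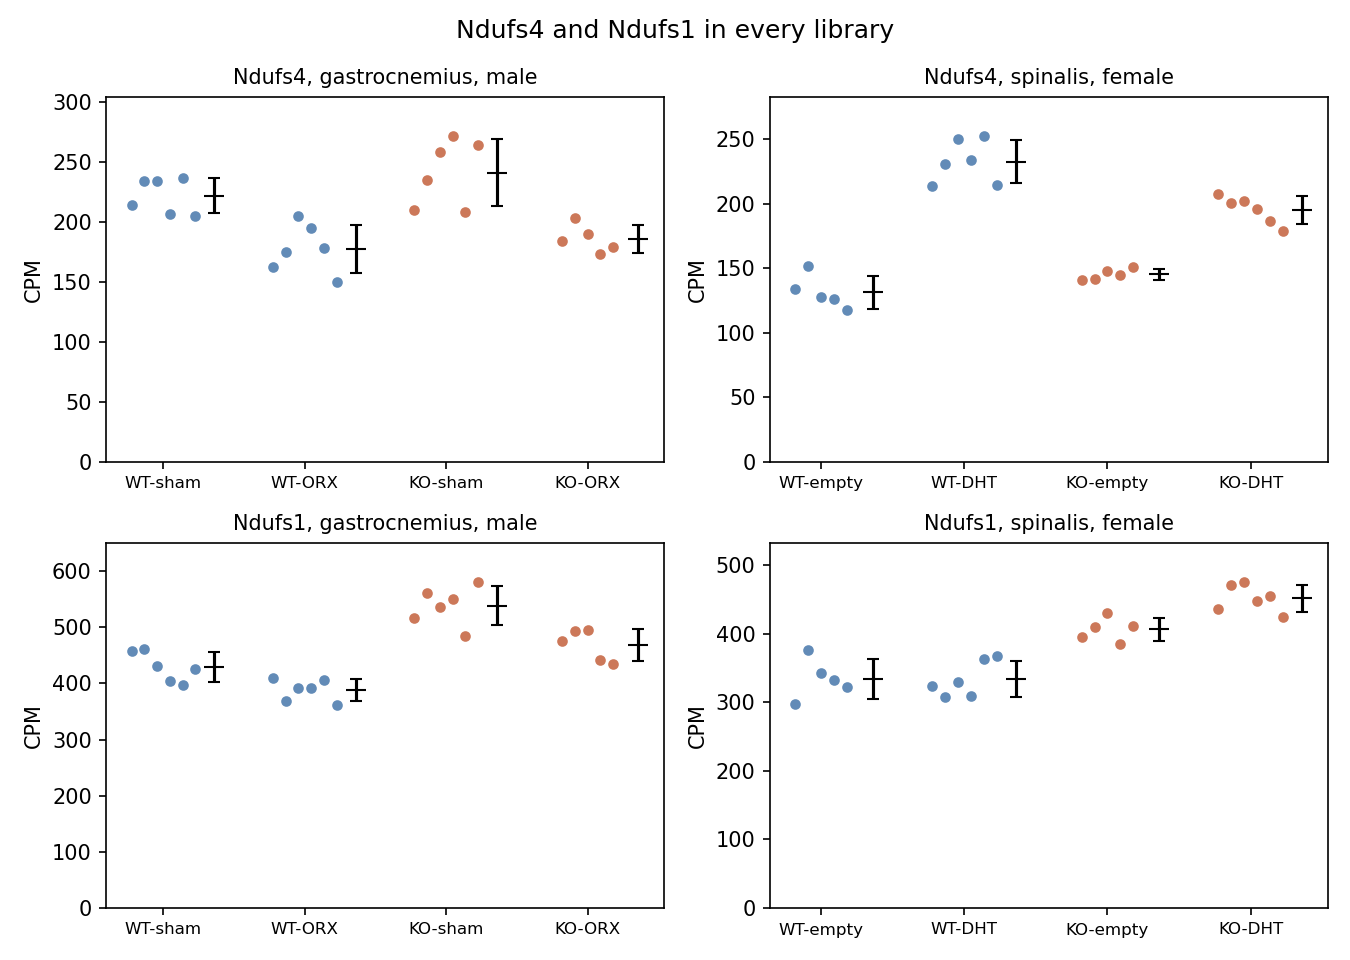
Level in CPM (vertical axes) of Ndufs4 and Ndufs1 in every library of the 8 groups, where points are libraries and bars are the mean with its SD. Ndufs4 had a median of 233 CPM in WT-DHT and 199 in KO-DHT, and Ndufs1 had 327 and 452.

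Ndufa9, near the junction of the arms, binds NADPH. In gastrocnemius, Ndufa9 had 177, 197 and 206 CPM in WT-sham, 164, 176 and 191 in WT-ORX, 203, 230 and 240 in KO-sham, and 176, 178, 193, 194 and 216 in KO-ORX. KO-ORX overlapped KO-sham, and KO-sham overlapped WT-sham. Spinalis levels of Ndufa9 were 152, 154, 157, 161 and 181 CPM in WT-empty, 162, 177 and 192 in WT-DHT, 174, 175, 184, 193 and 209 in KO-empty, and 195, 211 and 218 in KO-DHT. All KO-DHT libraries were above all WT-DHT libraries. Ndufa9 fell with ORX in KO (-0.24, SE 0.0567, adjusted p = 0.00631) and was higher in KO in sham (0.21, SE 0.0539, adjusted p = 0.00958) and under DHT (0.26, SE 0.0571, adjusted p = 0.00198). The ORX call was lost in 8 of 23 fits that each left out a library (adjusted p of up to 0.0276) and under library-size scaling (0.116). The sham call was lost in 15 of 23 fits (up to 0.032) and under library-size scaling (0.0212). Its exons overlap 1700018A23Rik on the opposite strand.

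Ndufa5 and Ndufs6 had the smallest p-values of the ORX interaction beside Ndufv2, without a call. Gastrocnemius levels of Ndufa5 were 143, 153 and 163 CPM in WT-sham, 141, 158 and 230 in WT-ORX, 159, 188 and 201 in KO-sham, and 142, 153, 158, 161 and 178 in KO-ORX. Those of Ndufs6 were 108, 118 and 125 CPM in WT-sham, 108, 118 and 153 in WT-ORX, 120, 137 and 150 in KO-sham, and 107, 109, 112, 117 and 135 in KO-ORX. The groups overlapped for both genes. WT-ORX mice 3 and 4 had 230 and 230 CPM of Ndufa5, against 141 to 160 in the other 4 mice, and 153 and 146 CPM of Ndufs6, against 108 to 118, and these 2 mice lay above every KO-ORX mouse. The interaction was -0.43 (SE 0.144, adjusted p = 0.289) for Ndufa5 and -0.33 (SE 0.115, adjusted p = 0.317) for Ndufs6, and no fit left out these 2 mice together. In spinalis, Ndufa5 had 120, 120, 122, 151 and 160 CPM in WT-empty, 125, 134 and 138 in WT-DHT, 125, 139, 146, 147 and 148 in KO-empty, and 146, 153 and 169 in KO-DHT. Ndufs6 had 87.3, 87.3, 91.2, 102 and 118 CPM in WT-empty, 86.7, 97.3 and 108 in WT-DHT, 94, 102, 102, 106 and 126 in KO-empty, and 95.9, 114 and 120 in KO-DHT there. Neither was called in any comparison, although Ndufa5 did not overlap between WT-DHT and KO-DHT. Ndufs6, with a zinc site needed late in assembly, overlaps Mrpl36 on the opposite strand. The other matrix-arm accessory members, Ndufv3, Ndufa2, Ndufa6, Ndufa7 and Ndufa12, were called in no comparison.

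The membrane arm holds 9 accessory members near the matrix arm and 10 measured ones at its far end. Ndufa8 is a twin-cysteine subunit on the side of the intermembrane space. In gastrocnemius, Ndufa8 had 96.3, 108 and 118 CPM in WT-sham, 94, 101 and 107 in WT-ORX, 115, 127 and 128 in KO-sham, and 93.3, 95.6, 97.3, 105 and 107 in KO-ORX. Each KO-ORX library lay below each KO-sham library. Spinalis levels of Ndufa8 were 74.9, 79.7, 84.9, 94.6 and 104 CPM in WT-empty, 90.7, 118 and 134 in WT-DHT, 94.4, 104, 112, 125 and 127 in KO-empty, and 101, 134 and 144 in KO-DHT. The spinalis groups overlapped. Ndufa8 fell with ORX in KO (-0.32, SE 0.0524, adjusted p = 0.000215), with an interaction of -0.21 (SE 0.0721, adjusted p = 0.319). Its spinalis values of 0.37 (SE 0.112, adjusted p = 0.0213) with DHT in WT and 0.36 (SE 0.116, adjusted p = 0.0543) for genotype with empty implants were not called.

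Ndufa10 resembles nucleoside kinases and sits on the matrix side of the membrane arm. In gastrocnemius, Ndufa10 had 181, 201 and 223 CPM in WT-sham, 167, 180 and 188 in WT-ORX, 213, 231 and 247 in KO-sham, and 174, 179, 188, 196 and 197 in KO-ORX. KO-ORX lay below KO-sham with no overlap. Spinalis levels of Ndufa10 were 183, 192, 197, 201 and 239 CPM in WT-empty, 193, 212 and 250 in WT-DHT, 201, 210, 217, 227 and 254 in KO-empty, and 259, 287 and 300 in KO-DHT. All KO-DHT libraries were above the other groups. Ndufa10 fell with ORX in KO (-0.31, SE 0.0532, adjusted p = 0.000347), rose with DHT in KO (0.36, SE 0.0785, adjusted p = 0.00412) and was higher in KO than in WT under DHT (0.37, SE 0.0746, adjusted p = 0.000767). The DHT call was lost without 1 of 3 KO-empty or 2 KO-DHT libraries, with an adjusted p of 0.0141, 0.0121, 0.0159, 0.0111 and 0.0109. Ndufc1, also in this part of the arm, was higher in KO under DHT (0.30, SE 0.0714, adjusted p = 0.00409), a call lost without a WT-DHT library (0.0118) or a KO-DHT library (0.0121). The other members here, Ndufa1, Ndufa3, Ndufa11, Ndufa13, Ndufs5 and Ndufc2, were called in no comparison.

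At the far end of the membrane arm, Ndufb2 was the member called in the genotype comparison after ORX beside Ndufs1. In gastrocnemius, Ndufb2 had 22.9, 27.8 and 33.8 CPM in WT-sham, 22.9, 24.1 and 26.1 in WT-ORX, 26.5, 31.4 and 37.1 in KO-sham, and 26.6, 28.9, 31.5, 34.6 and 37.6 in KO-ORX. Each KO-ORX library was above each WT-ORX library. Spinalis levels of Ndufb2 were 22.4, 23.8, 24.6, 25.5 and 37.3 CPM in WT-empty, 23.6, 33.4 and 35.7 in WT-DHT, 23.2, 27.3, 30.2, 32.9 and 39.5 in KO-empty, and 27.4, 28.9 and 45 in KO-DHT, with all groups overlapping. The log2 fold change after ORX was 0.39 (SE 0.0927, adjusted p = 0.00854). The call was lost in 14 of 23 fits that each left out a library (adjusted p of up to 0.0378) and with limma-voom (0.0127). Ndufb2 overlaps Braf and Gm16272 on the opposite strand and Gm42420 on its own strand, so its counts are uncertain.

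Among the other far-end members, Ndufb9 rose with DHT in KO (0.39, SE 0.0839, adjusted p = 0.00411) and was higher in KO under DHT (0.32, SE 0.0797, adjusted p = 0.00494), Ndufb10 fell with ORX in KO (-0.25, SE 0.0631, adjusted p = 0.00839), and Ndufb3 was higher in KO under DHT (0.21, SE 0.055, adjusted p = 0.00799). The Ndufb9 calls were lost without 1 of 2 KO-empty or 3 KO-DHT libraries (adjusted p of 0.0103 to 0.0139) and without 1 of 3 WT-DHT or 3 KO-DHT libraries (0.0107 to 0.0157). The Ndufb10 call was lost in 11 of 23 fits that each left out a library (up to 0.0331) and the Ndufb3 call in 9 of 22 (up to 0.0252). Exons of Ndufb9 overlap Gm49356 on the same strand, so its counts are uncertain. Ndufb4, Ndufb5, Ndufb6, Ndufb7, Ndufb8 and Ndufb11 were called in no comparison.

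Ndufab1, the mitochondrial acyl carrier protein, is a subunit of both arms and also serves lipoic acid synthesis. In gastrocnemius, Ndufab1 had 40.5, 48.1 and 51 CPM in WT-sham, 39.8, 48.8 and 56.7 in WT-ORX, 53.1, 57.4 and 59.3 in KO-sham, and 47.3, 48, 48.1, 50 and 54.2 in KO-ORX. Each KO-sham library was above each WT-sham library. Spinalis levels of Ndufab1 were 36, 39, 42.2, 42.9 and 59.9 CPM in WT-empty, 33.9, 42.6 and 52.8 in WT-DHT, 45.5, 47.4, 47.8, 48.9 and 55.2 in KO-empty, and 44.1, 56.6 and 73 in KO-DHT, with all groups overlapping. The sham difference was 0.27 (SE 0.0677, adjusted p = 0.0082). It was lost in 13 of 23 fits that each left out a library (adjusted p of up to 0.0282) and under library-size scaling (0.012). Its exons overlap Gm44986 on the opposite strand.

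Ndufa4, now counted with cytochrome c oxidase, gave 2 calls, both with DHT. In spinalis, Ndufa4 had 345, 371, 371, 415 and 421 CPM in WT-empty, 441, 468 and 512 in WT-DHT, 368, 379, 387, 390 and 433 in KO-empty, and 490, 522 and 542 in KO-DHT. DHT libraries were above empty libraries in each genotype, with no overlap. The log2 fold changes were 0.30 (SE 0.0603, adjusted p = 0.000717) in WT and 0.40 (SE 0.0605, adjusted p = 7.75e-05) in KO, and the interaction was 0.10 (SE 0.085, adjusted p = 0.63). The WT call was just lost under library-size scaling (0.23, adjusted p = 0.0103). Gastrocnemius levels of Ndufa4 were 544, 592 and 660 CPM in WT-sham, 452, 521 and 641 in WT-ORX, 579, 677 and 727 in KO-sham, and 499, 513, 542, 569 and 597 in KO-ORX, with all groups overlapping and no call.

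By place in the complex, for the places given here, 3 of 3 members of the NADH-binding core were called higher in KO than in WT under DHT, beside 5.13% of all genes higher and 6.51% lower, with a median of 0.37. Of the accessory members, 1 of 9 in the matrix arm was called higher and 1 lower (median 0.19), 2 of 9 near the junction higher (0.20) and 2 of 10 at the far end higher (0.16). The acyl carrier subunit (0.36) and Ndufa4 (0.13) were not called. The median for all genes was 0.0064. No test compared these places with each other.

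Of the 7 complex I genes of mtDNA, 5 were in the tables, and mt-Nd3 and mt-Nd4l were not. Their summed level was 4160, 4339 and 4479 CPM in WT-sham (lowest, median and highest), 3054, 3302.5 and 4533 in WT-ORX, 3869, 4484 and 4857 in KO-sham, and 3008, 3067, 3334, 3407 and 3644 in KO-ORX. KO-ORX lay below KO-sham with no overlap. In spinalis it was 2722, 2981, 3032, 3513 and 3892 CPM in WT-empty, 3716, 4320 and 5038 in WT-DHT, 3432, 3721, 3808, 4054 and 4101 in KO-empty, and 3691, 4785 and 5904 in KO-DHT. The most abundant of them, mt-Nd1, encodes a quinone-site subunit. With ORX in KO mt-Nd1 (-0.45, SE 0.0906, adjusted p = 0.00155) and mt-Nd5 (-0.39, SE 0.0887, adjusted p = 0.00486) fell, and with DHT in WT mt-Nd1 rose (0.48, SE 0.0972, adjusted p = 0.00074). The other 8 comparisons called 0 of the 5 with edgeR.

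All mtDNA-encoded genes together took 10% to 17.8% of the counts in gastrocnemius and 3.44% to 15.2% in spinalis. The share varied within groups, from 3.44% to 9.56% in WT-empty and from 5.36% to 15.2% in KO-DHT. It ran from 5.07% to 11.5% in WT-DHT and from 6.94% to 10.8% in KO-empty. The medians were 6.07% in WT-empty, 9.355% in WT-DHT, 9.69% in KO-empty and 10.565% in KO-DHT, so the share was not balanced between these groups. Its part in the results was not tested beyond the scaling without these genes.

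Of 19 complex I assembly factors, 18 were in the tables, and Coa1 was not. Ndufaf5, which hydroxylates Ndufs7 during assembly, rose with ORX in WT (0.88, SE 0.0822, adjusted p = 2.17e-08) and in KO (0.49, SE 0.0857, adjusted p = 0.000394), while most complex I members had negative values in KO. With DHT in WT Ndufaf5 fell (-0.88, SE 0.103, adjusted p = 6.63e-07), and the DHT interaction was 0.83 (SE 0.146, adjusted p = 0.00113). Ndufaf4 fell with ORX in WT (-0.28, SE 0.0684, adjusted p = 0.00773) and in KO (-0.31, SE 0.0729, adjusted p = 0.00598). In order of the comparisons above, called higher and lower were 1 and 1 with ORX in WT, 1 and 2 with ORX in KO, and 0 and 0 in the ORX interaction. For genotype they were 3 and 0 in sham, 1 and 0 after ORX, 1 and 0 with empty implants, and 6 and 0 under DHT. For DHT they were 1 and 2 in WT, 0 and 0 in KO, and 2 and 0 in the interaction. The shares of all genes called in these comparisons are those given with the complex I counts. The 6 higher in KO under DHT included Ndufaf5 (0.83, SE 0.0991, adjusted p = 1.07e-06), Ndufaf1 (0.43, SE 0.0584, adjusted p = 8.52e-06) and Tmem186 (0.34, SE 0.0701, adjusted p = 0.000878). Of 3 paralogs and alternative subunits, Ndufa4l2 and Ndufb1-ps were in the tables and Coxfa4l3 was not, and none was called by edgeR, with Ndufa4l2 at 0.63 (SE 0.194, adjusted p = 0.0246) for DHT in WT.

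The nuclear subunits of the other respiratory complexes gave calls on the same sides in the comparisons with most complex I calls. With ORX in KO, 4 of 9 complex III, 2 of 11 complex IV and 5 of 15 measured complex V subunits were called lower. The share of all genes called lower was 3.58%. Of complex II, 0 of 4 subunits were called. The medians of complexes III, IV, V and II were -0.19, -0.20, -0.21 and -0.15. Uqcrc1, a core protein of complex III, had -0.41 (SE 0.0585, adjusted p = 3.49e-05), Cox4i1 of complex IV had -0.33 (SE 0.0611, adjusted p = 0.000626) and Atp5a1, the catalytic-ring alpha subunit of ATP synthase, had -0.29 (SE 0.0565, adjusted p = 0.00129). With ORX in WT the counts lower were 0 of complex II, 1 of complex III and 1 of complex V. For complex IV the count was 3 (Cox5a, Cox4i1 and Cox5b), and the share of all genes called lower was 3.41%. Cox5a had -0.31 (SE 0.065, adjusted p = 0.0018).

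For genotype under DHT, all 4 complex II subunits, 6 of 9 of complex III, 2 of 11 of complex IV and 7 of 15 of complex V were called higher. None was called lower, beside 5.13% of all genes called higher and 6.51% lower. The medians of complexes II to V were 0.38, 0.32, 0.21 and 0.27. Sdhb, the iron-sulfur subunit of complex II, had 0.45 (SE 0.0634, adjusted p = 1.09e-05) there and 0.41 (SE 0.0939, adjusted p = 0.0116) in the DHT interaction. Uqcrc2 of complex III had 0.36 (SE 0.0549, adjusted p = 3.1e-05), Cox6a2, a muscle isoform of complex IV, 0.48 (SE 0.0726, adjusted p = 2.81e-05), and Atp5f1 of complex V 0.37 (SE 0.0554, adjusted p = 2.68e-05). For genotype in sham, 2, 3, 0 and 2 subunits of complexes II, III, IV and V were called higher, beside 2.48% of all genes. Sdha was at 0.31 (SE 0.0545, adjusted p = 0.000407). After ORX and with empty implants genotype called 0 of each with edgeR.

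With DHT in KO 0, 2, 4 and 2 subunits of complexes II, III, IV and V were called higher, beside 2.86% of all genes. Cox7a1, the muscle isoform, was at 0.52 (SE 0.0872, adjusted p = 0.00032) and Atp5g1 at 0.39 (SE 0.0623, adjusted p = 0.000179). With DHT in WT Sdhb (-0.32, SE 0.0662, adjusted p = 0.00114) and Cox6a2 (-0.30, SE 0.0758, adjusted p = 0.00567) fell, and Uqcrc1 (0.27, SE 0.0724, adjusted p = 0.00892), Cox7a1 (0.54, SE 0.0873, adjusted p = 6.87e-05) and Cox4i1 (0.29, SE 0.0684, adjusted p = 0.00297) rose. The DHT interaction called Sdhb and Cox6a2 (0.38, SE 0.107, adjusted p = 0.0485) higher, and the ORX interaction called 0.

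Of 13 regulators of respiratory genes, Esrra, the estrogen-related receptor alpha, and Perm1, a muscle regulator induced with it, fell with ORX. Esrra levels were 69.8, 77 and 82.6 CPM in WT-sham (lowest, median and highest) and 50.1, 59 and 64.3 in WT-ORX, and 69.8, 73.7 and 78.2 in KO-sham, and the KO-ORX libraries ran from 48.8 to 57.9. ORX and sham did not overlap in either genotype. The log2 fold changes of Esrra were -0.40 (SE 0.0578, adjusted p = 2.05e-05) in WT and -0.46 (SE 0.0613, adjusted p = 1.28e-05) in KO, and those of Perm1 -0.41 (SE 0.0717, adjusted p = 0.00025) and -0.42 (SE 0.0757, adjusted p = 0.000508). With DHT Esrra rose in WT (0.34, SE 0.0875, adjusted p = 0.00733) and in KO (0.56, SE 0.0878, adjusted p = 0.000153). Perm1 was higher in KO under DHT (0.33, SE 0.082, adjusted p = 0.00554). Ppargc1a, which encodes the coactivator PGC-1alpha, was not called, with -0.22 (SE 0.0712, adjusted p = 0.0435) for genotype in sham and -0.26 (SE 0.075, adjusted p = 0.0295) after ORX. The regulators had 0 calls in the genotype comparisons in sham, after ORX and with empty implants and in both interactions.

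The 8 mitochondrial mass markers summed to medians of 2510 CPM in WT-sham, 2390 in WT-ORX, 2890 in KO-sham, 2470 in KO-ORX, 2010 in WT-empty, 2170 in WT-DHT, 2190 in KO-empty and 2490 in KO-DHT, with Vdac1 the most abundant. They gave 1 call lower with ORX in WT, 3 lower with ORX in KO, 2 higher and 1 lower for genotype in sham, 2 higher with DHT in KO and 3 higher for genotype under DHT. Cs, citrate synthase, had -0.24 (SE 0.0594, adjusted p = 0.00737) with ORX in KO and 0.25 (SE 0.05, adjusted p = 0.000859) for genotype under DHT. The other 5 comparisons called 0. The shares of all genes called are those given with the complex I counts. The part of these markers in the results on complex I was not tested.

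Markers of fibre types were examined because complex I content differs between them. Levels of Myh1, the fast 2X myosin, were 2020, 2880 and 4070 CPM in WT-sham, 1590, 1890 and 2220 in WT-ORX and 2660, 3190 and 4320 in KO-sham. KO-ORX ran from 1510 to 2630. ORX and sham overlapped in WT and did not in KO. Myh1 fell with ORX in WT (-0.61, SE 0.141, adjusted p = 0.00499) and in KO (-0.61, SE 0.149, adjusted p = 0.00743). Myh2, the fast 2A myosin, and Myh4, the fast 2B myosin, were called in no comparison, with -0.35 (SE 0.145, adjusted p = 0.146) for Myh2 and 0.01 (SE 0.114, adjusted p = 0.977) for Myh4 with ORX in WT. The part of Myh1 in the complex I results was not tested.

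Slow fibre markers were all 7 in the tables. In spinalis they summed to medians of 966 CPM in WT-empty, 449 in WT-DHT, 1720 in KO-empty and 428 in KO-DHT, with Myh7, the slow myosin, the most abundant. Myh7 had 115, 246, 323, 477 and 657 CPM in WT-empty, 35.6, 123 and 292 in WT-DHT, 288, 453, 583, 685 and 726 in KO-empty, and 54.6, 92.2 and 355 in KO-DHT. The DHT libraries lay mostly lower, with overlap in each genotype. The list had medians of -1.21 with DHT in WT and -1.67 in KO and 0 calls with edgeR, while complex I members had positive medians with DHT. In gastrocnemius their sums had medians of 800 and 972 CPM in WT-sham and WT-ORX and 881 and 1010 in KO-sham and KO-ORX, with Myl2 the most abundant and 0 calls. Their part in the complex I results was not tested.

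Skeletal muscle markers as a whole summed to medians of 200000 and 218000 CPM in WT-sham and WT-ORX and 196000 and 199000 in KO-sham and KO-ORX. In spinalis the medians were 293000 and 252000 in WT-empty and WT-DHT and 242000 and 225000 in KO-empty and KO-DHT. Of the 8, Acta1, the skeletal alpha-actin, was lower in KO in sham (-0.37, SE 0.0556, adjusted p = 5.83e-05), after ORX (-0.50, SE 0.0586, adjusted p = 2.35e-06) and under DHT (-0.51, SE 0.0946, adjusted p = 0.000335). The list gave 1 call higher and 1 lower with ORX in WT, 3 lower with ORX in KO, and 2, 4, 1 and 1 lower for genotype in sham, after ORX, with empty implants and under DHT. It gave 1 higher with DHT in either genotype.

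Brown adipocytes are rich in mitochondria, and spinalis lies below the scapular fat. Of 6 brown adipocyte markers, 3 were in the gastrocnemius table, and Ucp1, Elovl3 and Otop1 were not, so the defining marker Ucp1 was absent there. All 6 were in the spinalis table, and Cox8b, which muscle also expresses, was the most abundant. Ucp1 had 0.222, 11.6, 16, 31.3 and 36.2 CPM in WT-empty, 0.0783, 6.71 and 29.7 in WT-DHT, 3.17, 4.82, 7.4, 10.6 and 32.9 in KO-empty, and 0.0917, 0.609 and 157 in KO-DHT. Ucp1 was over 20 CPM in 5 libraries, and it was highest in a KO-DHT library. The summed levels of the 6 markers had medians of 426 CPM in WT-empty, 538 in WT-DHT, 431 in KO-empty and 596 in KO-DHT. Cox7a1, the muscle isoform of complex IV, was the 1 called higher with DHT in each genotype. Ucp1, Cidea, Elovl3 and Otop1 had log2 fold changes of -1.01, -0.47, -1.11 and -1.06 with DHT in WT. In KO they had 1.18, 0.85, 0.33 and 0.59. Their SE ran from 0.839 to 1.34, and none was called. In gastrocnemius the 3 measured markers summed to medians of 751 and 688 CPM in WT-sham and WT-ORX. The medians were 832 and 649 in KO-sham and KO-ORX, with 0 calls. The part of brown adipocytes in the complex I results was not tested beyond the fits that used Ucp1, given next.

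Without the 5 libraries over 20 CPM of Ucp1, an alternative chosen after seeing the data, 2 members were called with DHT in WT, 6 with DHT in KO, 0 for genotype with empty implants, 8 for genotype under DHT and 0 in the DHT interaction, all in edgeR fits with 17 libraries. Over all genes the calls fell from 1914 to 1207 with DHT in WT, from 784 to 424 with DHT in KO, from 722 to 190 with empty implants, from 1978 to 1373 under DHT and from 550 to 311 in the interaction. The unadjusted p was under 0.05 for 5 members in the empty-implant comparison and for 10 in the interaction. Ndufs4 then had an interaction of -0.36 (adjusted p = 0.0868) and Ndufs1 a difference of 0.19 with empty implants (adjusted p = 0.177). With log2 Ucp1 as a covariate, also chosen after seeing the data, the counts were 2, 5, 1, 12 and 1.

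White adipocyte markers, with Cfd the most abundant, summed to medians of 542 and 243 CPM in WT-empty and WT-DHT and 593 and 355 in KO-empty and KO-DHT. Cfd was the 1 of 6 called, lower with DHT in WT (-1.20, SE 0.32, adjusted p = 0.00898). In gastrocnemius the medians were 138 and 100 CPM in WT-sham and WT-ORX and 132 and 170 in KO-sham and KO-ORX. The defining marker Adipoq had medians between 18.9 and 28 CPM in gastrocnemius and between 34.6 and 70.7 in spinalis. Their part in the complex I results was not tested.

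The 3 satellite cell markers were higher in KO under DHT, Pax7 at 1.24 (SE 0.247, adjusted p = 0.000696), Myf5 at 0.89 (SE 0.2, adjusted p = 0.00238) and Calcr at 1.04 (SE 0.26, adjusted p = 0.00544). Their summed levels were low: 4.08 to 7.86 CPM in WT-empty, 3.23 to 5.06 in WT-DHT, 7.27 to 9.13 in KO-empty and 6.53 to 9.49 in KO-DHT. In gastrocnemius the medians were 3.67 and 5.29 CPM in WT-sham and WT-ORX and 5.88 and 6.75 in KO-sham and KO-ORX. Myf5, the most abundant, was the 1 called for genotype in sham (0.75, SE 0.176, adjusted p = 0.00532).

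Other cell types gave few calls. Of 5 endothelial markers, Pecam1 rose with DHT in WT (0.33, SE 0.0725, adjusted p = 0.0019), and group medians of their sum were 161 to 246 CPM, with Pecam1 the most abundant. Of 5 fibroblast markers, Lum rose with ORX in WT (0.59, SE 0.0889, adjusted p = 3.59e-05) and in KO (0.57, SE 0.0933, adjusted p = 0.000196) and fell with DHT in KO (-0.98, SE 0.142, adjusted p = 5.26e-05), Pdgfra fell with ORX (-0.23, SE 0.0585, adjusted p = 0.00982) and with DHT (-0.44, SE 0.0841, adjusted p = 0.000454) in WT, and Dcn rose with DHT in WT (0.54, SE 0.114, adjusted p = 0.00121) and in KO (0.51, SE 0.114, adjusted p = 0.00522). Dcn was the most abundant fibroblast marker in gastrocnemius and Col3a1 in spinalis, with group medians of the sum from 1460 to 1910 CPM. Of 5 macrophage markers, Csf1r was lower with ORX in WT (-0.31, SE 0.0703, adjusted p = 0.00414) and for genotype in sham (-0.29, SE 0.0709, adjusted p = 0.00748), and Mrc1 was the most abundant, with group medians of the sum from 89.5 to 110 CPM. Schwann cell markers (5 of 5 in the tables, Mbp the most abundant, group medians of 28.8 to 52 CPM) and red blood cell markers (5 of 5, Hbb-bs the most abundant, 143 to 469 CPM) gave 0 calls in the 10 comparisons with edgeR. Of the red blood cell markers, Hbb-bs had the smallest adjusted p in the DHT comparison in WT, 0.167. The part of these cells in the complex I results was not tested.

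The members lie on 15 chromosomes. Ndufb8, Ndufv1 and Ndufs8 share chromosome 19 with Actn3. Ndufb8 was called in no comparison. Between Actn3 and each of Ndufv1 and Ndufs8 lie 38 and 48 protein-coding genes in the annotation, and both were called for genotype under DHT, higher in KO, and in none of the other 3 genotype comparisons. Within 1 Mb of Actn3 the genotype comparisons called 2 of 94 genes in sham (2.13%, beside 5.3% of all genes) and 5 of 94 after ORX (5.32%, beside 3.8%). They called 4 of 93 with empty implants (4.3%, beside 4.25%) and 8 of 93 under DHT (8.6%, beside 11.6%). Higher and lower in KO were 1 and 1 in sham, 1 and 4 after ORX, 1 and 3 with empty implants, and 8 and 0 under DHT. Exons of 12 members overlap a gene on the opposite strand and those of 3 members a gene on the same strand in the annotation.

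Exon length went with the fold changes of members in some comparisons. Across the 37 members, which are not independent replicates, Pearson's r between log2 fold change and log2 exon length was -0.39 with ORX in WT and 0.43 for genotype after ORX, beside -0.02 and 0.08 over all genes. For genotype under DHT it was 0.09, beside -0.02.

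RefSeq promoter windows, from 250 bases before to 50 bases after the start of a gene, were present for 33 of 37 members. Those of Ndufa2, Ndufb9 and Ndufs1 were not analysed here. Some members had more than 1 window, which gave 35. Each was searched on both strands for 4 motifs. AAGGTCA, bound by the estrogen-related receptors, was in 3 windows (8.57%, beside 4.72% of 32851 windows of all genes): Ndufb2, Ndufb4 and Ndufs5. CCGGAAG, the ETS core, was in 4 (11.4%, beside 8.86%): Ndufb6, Ndufb7, Ndufs3 and Ndufs8. GCGCATGCG, the NRF1 core, was in 2 (5.71%, beside 1.75%): Ndufa11 and Ndufa8. AGAACA, a short androgen receptor motif, was in 7 (20%, beside 19%), among them Ndufs4. A match is a description, and no factor binding was measured.

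The promoter windows of Ndufs4, the member with the largest response to DHT, and of Ndufa8, lower after ORX in KO, are shown from build GRCm38.p6. Ndufs4 lies at chr13:114388045-114388344 and Ndufa8 at chr2:36049289-36049588, both on the minus strand and written from 5′ to 3′. Capitals mark the androgen receptor motif in Ndufs4 and the NRF1 core in Ndufa8, the latter read on the other strand.
Ndufs4: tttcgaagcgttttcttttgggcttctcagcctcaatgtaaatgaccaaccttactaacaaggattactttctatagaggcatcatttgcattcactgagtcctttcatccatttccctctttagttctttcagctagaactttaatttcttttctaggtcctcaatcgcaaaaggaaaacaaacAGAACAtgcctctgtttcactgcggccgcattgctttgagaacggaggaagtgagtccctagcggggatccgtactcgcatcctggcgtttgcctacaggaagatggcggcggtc
Ndufa8: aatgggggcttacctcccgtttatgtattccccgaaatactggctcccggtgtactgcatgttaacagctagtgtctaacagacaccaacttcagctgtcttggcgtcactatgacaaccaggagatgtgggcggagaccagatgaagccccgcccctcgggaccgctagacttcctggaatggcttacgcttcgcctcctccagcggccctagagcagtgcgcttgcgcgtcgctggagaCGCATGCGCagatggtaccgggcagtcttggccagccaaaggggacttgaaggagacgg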

How the data were processed

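The deposited files held raw counts per gene, which the authors made from stranded total RNA libraries with STAR 2.7.1b, SAMtools 1.9, Picard 2.20.2 and featureCounts (Subread 2.0.0). The labels name build GRCm39, and the strand setting of counting is not stated. There were 23 gastrocnemius and 22 spinalis libraries, with 26.7 to 55.4 M counts each, and 1 labelled KO-ORX sample had no counts. Spinalis columns carry no replicate number of the labels.

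Genes needed 0.5 CPM in at least 2 libraries. Each table was fitted in edgeR 4.0.16 (R 4.3.3) with TMM scaling, a mean for each of its 4 groups and quasi-likelihood tests, two-sided, with Benjamini-Hochberg adjustment over all genes. Symbols, exon lengths and neighbours came from GENCODE M21, which matched 17433 and 16920 genes. The code was tested on simulated data. Figures used matplotlib 3.10.9 and Python 3.11.15.

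Values per library are given for called core subunits, the 3 members with the smallest p of each comparison, Ndufa4, Ndufab1 and Actn3, and fold changes for the up to 8 members with the smallest p of each comparison. Members at either end of the level per kilobase are named. Other lists name up to 3 genes by smallest p, and the defining and most abundant markers. Other called members, and other comparisons of members with values, were named after their values were seen. Some genes that this rule takes are not reported here. The 29 lists covered places in the complex, mtDNA-encoded subunits, assembly factors, paralogs, complexes II to V, regulators, mitochondrial mass, and markers of muscle, fibre types, white and brown adipocytes, endothelium, fibroblasts, macrophages, Schwann cells, red blood cells and satellite cells. Members and lists were chosen with earlier results of these data known.

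Alternatives were library-size scaling with and without mtDNA-encoded genes, DESeq2 1.42.0, limma-voom (limma 3.58.1), no filter, at least 10 counts in every library, only the compared groups, thinned counts, swapped thresholds, a replicate block and leaving out each library. Leaving out libraries over 20 CPM of Ucp1 and a Ucp1 covariate were added after seeing the data.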

Additional observations from a re-analysis of the deposited data

Results flagged for a closer look

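Levels of the 16 members with values per library, and the sum of all members, were examined in each group, 136 in all, for a library far from the rest, and 5 were found, where chance gives about 1 in 20 groups. Ndufs3 was at 74.3 CPM in WT-sham mouse 5, and the other 5 mice were at 88 to 91.6. In the same WT-empty library Ndufab1 was at 59.9 CPM, against 36 to 42.9 in the other 4, and Ndufb2 at 37.3 CPM, against 22.4 to 25.5. Ndufv1 was at 356 CPM in another WT-empty library, against 275 to 296. Ndufb2 was at 45 CPM in a KO-DHT library, against 27.4 to 33.4. No explanation was tested.

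The DHT response of Ndufs4 differed between genotypes by the interaction test, with a difference of log2 fold changes of -0.40 (SE 0.0888, edgeR adjusted p = 0.0102). Over the other methods, scalings, filters and sets of libraries over which it was refitted, single libraries left out aside, its adjusted p ran from 0.00123 with DESeq2 to 0.0868 without the libraries over 20 CPM of Ucp1.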

How the results depend on the processing

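Counts of members called stayed within 1.5 times in 75 fits and moved in 28, medians over members moved by less than the spread between mice in 77 and by more in 3, and of the called members' fold changes outside the fits that left out a library, 385 kept their call, 38 lost it and 0 reversed. Library-size scaling called 1 member with ORX in WT, 3 with ORX in KO, 1 for genotype in sham, 2 for genotype with empty implants, 21 for genotype under DHT and 4 in the DHT interaction. With mtDNA-encoded genes left out of the library size the counts were 1 with ORX in WT, 4 with ORX in KO, 1 for genotype in sham and 2 with empty implants. DESeq2 called 9 for genotype in sham, 13 with DHT in KO and 4 in the DHT interaction, and limma-voom 1 for genotype after ORX. With only the compared groups fitted, genotype with empty implants called 0. With thresholds swapped the counts were 5, 15 and 12 for ORX in WT, ORX in KO and genotype in sham, 6, 15, 2 and 21 for DHT in WT, DHT in KO, genotype with empty implants and genotype under DHT, and 0 in the DHT interaction. The replicate block called 7 for genotype in sham and 1 after ORX; mice with the same number were not more alike than others (median r of 0.01 against -0.01). Without libraries over 20 CPM of Ucp1 the counts were 0 with empty implants, 8 under DHT and 0 in the DHT interaction. Leaving out each library gave 1 to 3 calls with ORX in WT, 5 to 11 with ORX in KO, 1 to 7 for genotype in sham, 1 to 2 after ORX, 0 to 0 in the ORX interaction, 2 to 3 with DHT in WT, 4 to 14 with DHT in KO, 0 to 2 with empty implants, 10 to 16 under DHT and 1 to 4 in the DHT interaction. Of 40 calls of a member in a comparison, 17 were lost in at least 1 of these fits and 0 reversed. The cause was not tested. Members had at least 756 counts in every library, and thinned counts gave the same number of called members in each comparison. Groups of 5 or 6 mice, a strand setting that is not stated, and muscle, sex and age that changed together between the experiments limit what can be said.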
